A study of Mus musculus with 12 samples.

Results

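PGC-like cells (PGCLCs) induced from female embryonic stem cells (ESCs) were compared with primordial germ cells (PGCs) taken from the mouse embryo at day 9.5 (E9.5). The comparison used every genomic feature with a methylation level in both ESC-PGCLC libraries and both E9.5 PGC libraries, which was 138641 of the 176831 features listed in at least 1 of the 12 libraries of the series. All libraries were C57BL6. The ESC-PGCLC group came from a female ESC line of Actin-GFP mice, kept on feeder cells and then in a ground-state medium, turned into epiblast-like cells over 2 days with bFGF and Activin A, and induced for 4 days with BMP4, SCF, EGF and LIF. These cells were sorted for the surface proteins CD61 and SSEA1. The E9.5 PGC group was sorted with the same markers, or with SSEA1 alone on magnetic beads, from embryos that the methods describe as female. Neither group carried a further allele or treatment in the labels, and no label says whether the 2 replicates of a group came from separate inductions or litters, so p-values measure only the spread between these libraries. Reduced representation bisulfite sequencing (RRBS) was used, which reads CpGs near MspI cut sites.

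Cytosine methylation at CpG dinucleotides is copied to the new strand at each DNA replication. PGCs lose most of it while they migrate and settle in the gonad, first across the bulk of the genome and later at imprinted control regions, CpG islands of the inactive X chromosome and promoters of germline genes. PGCLCs are a culture model of the early part of that process. Some retroelements, above all intracisternal A particles (IAPs), are known to keep part of their methylation through it.

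The promoters of 6 genes on which the results turn are shown here, so that a reader can see how many CpGs lie just before each start. Rasgef1a and Cyp2c38 were the promoters among the 20 features outside repeats with the widest separation of the groups, and Plagl1, Zrsr1, Meg3 and Mcts2 had the widest separation of the groups among imprinted promoters found in the sequence table used here. The sequences run 5′ to 3′ up to the RefSeq gene start, leave out bases that lie in an annotated exon, come from RefSeq on GRCm38.p6, and have each CpG in capitals.
Rasgef1a: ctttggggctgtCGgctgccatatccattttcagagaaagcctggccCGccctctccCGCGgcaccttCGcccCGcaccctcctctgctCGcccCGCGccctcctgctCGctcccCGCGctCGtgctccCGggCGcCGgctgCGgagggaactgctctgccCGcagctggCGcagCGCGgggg
Cyp2c38: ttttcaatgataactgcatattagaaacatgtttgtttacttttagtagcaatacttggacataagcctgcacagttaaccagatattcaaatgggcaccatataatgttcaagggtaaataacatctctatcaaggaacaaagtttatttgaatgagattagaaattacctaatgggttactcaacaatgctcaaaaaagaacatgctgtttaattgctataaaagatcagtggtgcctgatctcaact
Plagl1: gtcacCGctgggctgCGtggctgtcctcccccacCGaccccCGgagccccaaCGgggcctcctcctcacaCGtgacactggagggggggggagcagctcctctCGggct
Zrsr1: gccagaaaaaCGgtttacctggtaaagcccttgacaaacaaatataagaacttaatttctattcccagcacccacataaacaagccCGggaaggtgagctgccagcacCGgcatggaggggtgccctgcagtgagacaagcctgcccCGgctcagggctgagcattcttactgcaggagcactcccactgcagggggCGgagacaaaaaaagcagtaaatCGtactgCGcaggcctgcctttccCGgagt
Meg3: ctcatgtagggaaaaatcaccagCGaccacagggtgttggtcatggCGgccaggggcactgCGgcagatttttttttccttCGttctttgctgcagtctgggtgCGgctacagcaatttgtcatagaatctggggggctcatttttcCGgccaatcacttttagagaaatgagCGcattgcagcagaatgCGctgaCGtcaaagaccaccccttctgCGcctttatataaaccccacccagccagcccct
Mcts2: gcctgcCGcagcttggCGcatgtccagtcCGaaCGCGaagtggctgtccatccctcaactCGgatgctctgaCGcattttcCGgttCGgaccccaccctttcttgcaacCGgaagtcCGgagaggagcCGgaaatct

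The Rasgef1a stretch (chr6:118011255-118011437, plus strand) holds 21 CpGs in 183 bases. Cyp2c38 (chr19:39463076-39463325, minus strand) holds none in 250 bases, so its level came from CpGs outside this stretch. Plagl1 (chr10:13090582-13090690, plus strand) holds 7 in 109 bases and lies 30328 bases downstream of the GENCODE gene start. Zrsr1 (chr11:22971755-22972004, plus strand) holds 8 in 250 bases, Meg3 (chr12:109540746-109540995, plus strand) 10 in 250 bases, and Mcts2 (chr2:152686898-152687034, plus strand) 12 in 137 bases. CCGG, the site MspI cuts, which reads the same on both strands, occurred 2, 0, 1, 4, 1 and 4 times in these stretches in the order given, and 47.1% of 32851 RefSeq windows of 250 bases hold it at least once. The files do not state how far a promoter reached, so a promoter level may come from CpGs beyond these bases.

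The 4 libraries listed between 144375 and 151289 features each, as levels without read counts, so the depth behind each level is unknown. Replicates differed by a mean of 2.71 points (percentage points of methylation) in ESC-PGCLCs and 2.34 points in E9.5 PGCs, and few features had identical replicate values (0.289% and 0.467%). Across features, which are not independent replicates, R2 between replicates was 0.962 in ESC-PGCLCs and 0.979 in E9.5 PGCs, and between the groups it ranged from 0.936 to 0.951. One check went against the description of the cells as female. Of 32 Y-linked features outside the pseudoautosomal end, 18 in 14 genes, among them Kdm5d, Uty, Usp9y and Zfy2, had a level in all 8 PGC and PGCLC libraries and in no ESC or pESC library (pESC, parthenogenetic ESC). ESC-PGCLC replicates 1 and 2 listed 25 and 23 Y-linked features, the E9.5 PGC replicates 27 and 25, and the ESC and pESC libraries 1 to 3. Since both libraries of each group list them, no comparison without such libraries could be made, and how they came to be listed was not tested. "ESC-PGCLC" and "E9.5 PGC" are used below as the names on the labels. RNA was not measured in these libraries, so the label could not be checked against marker expression.

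Methylation was lower in ESC-PGCLCs than in E9.5 PGCs across the genome. The mean over the 138641 features was 37.2% and 36.9% in the E9.5 PGC libraries and 30.3% and 30.2% in the ESC-PGCLC libraries. The groups did not overlap, with 6.63 points between the nearest replicates, and ESC-PGCLCs had 81.7% of the E9.5 PGC level. All 8 feature classes were lower in both ESC-PGCLC libraries, from 7.48% ± 0.00284 to 6.02% ± 0.0101 (SD, n = 2) in CpG islands, the CpG-dense stretches that mark many gene starts, for instance, and from 60.8% ± 0.0767 to 48.6% ± 0.0276 (SD, n = 2) in 3′ UTRs. The differences ranged from -1.35 points in 5′ UTRs to -12.2 points in 3′ UTRs, and repeats had the highest level, 64.9% against 54.6%. With medians over features in place of means the difference was -0.0219 points in CpG islands, -0.0217 in 5′ UTRs, -0.857 in island shores and -0.973 in promoters. As a share of the E9.5 PGC level the classes differed little, from 78.5% in exons to 84.1% in repeats. An exact two-sided permutation test of 2 against 2 libraries cannot go below p = 0.333, and it gave 0.333 for the whole set and for every class.

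**Figure D1:**
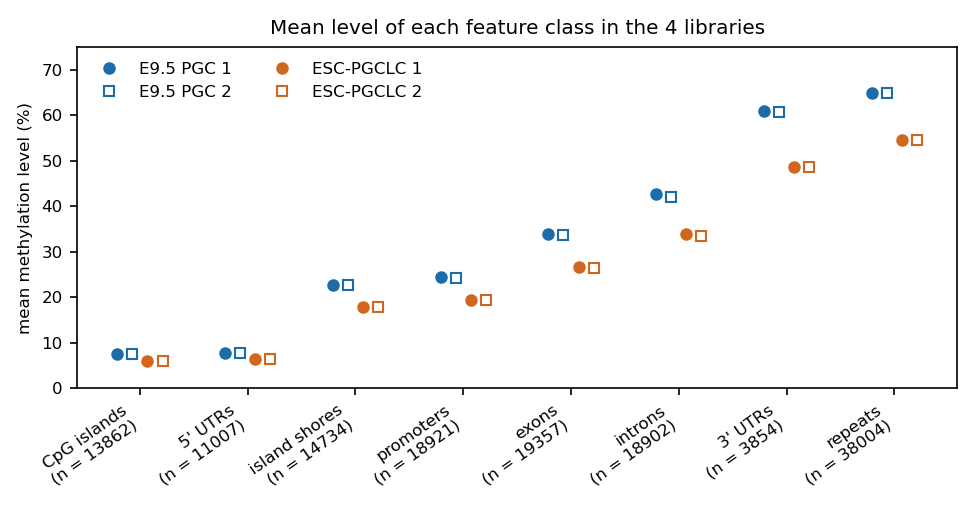
Mean methylation level in percent (vertical axis) of each feature class (horizontal axis, with the number of features) in each library; blue marks are E9.5 PGC and orange marks ESC-PGCLC, circles replicate 1 and squares replicate 2. In every class both ESC-PGCLC libraries lie below both E9.5 PGC libraries, by 1.32 points between the nearest replicates in 5′ UTRs and by 12.1 points in 3′ UTRs.

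Single features were tested with limma on the log2 odds of the level, in 8 PGC and PGCLC libraries, and a call required a Benjamini-Hochberg adjusted p below 0.05 together with a gap of 10 points or more between the group means. Of 137202 features tested, 40911 (29.8%) were called, 40680 lower (29.6%) and 231 higher (0.168%) in ESC-PGCLCs. Leaving out ESC-PGCLC replicate 1 gave 449 higher calls. Lower calls made up 60.6% of 3817 3′ UTRs, 42.9% of 18800 introns, 41.1% of 37202 repeats and 34.4% of 19251 exons. They made up 21.5% of 14626 island shores, 21% of 18794 promoters, 5.71% of 13799 CpG islands and 5.01% of 10913 5′ UTRs. Centring each library on its own median, which lay at 36.7% to 37.8% in E9.5 PGCs and 26.3% to 27.7% in ESC-PGCLCs, turned the balance to 6093 lower and 23524 higher, which is 79.4% higher calls against 0.565% without centring. The balance of the calls thus rests on the libraries' absolute levels. Centring takes more from E9.5 PGCs, so features with little methylation in all 4 libraries can turn higher without a gain. Of 11864 islands under 5% in E9.5 PGC replicate 1, 0 were then called lower and 6384 higher. Of 6850 promoters at 20% or more in that library, 631 were then called lower and 93 higher. Centring moved the median log2 odds difference over all features by 0.66, from -0.44 to 0.22, and counts under it are given for each list. The 1439 features not in the fit had a median difference of -5.21 points, 1041 of them lower. In all, 11159 members shared all 4 values with another member, as overlapping features of 1 gene do.

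The share of the E9.5 PGC level found in ESC-PGCLCs depended on that level. Features were binned on E9.5 PGC replicate 1 and the share was taken against replicate 2. Between 50% and 100% methylation the share was nearly flat, from 81.7% to 83.1% over 5 bins of 2592 to 17459 features. It was lowest, at 73.4%, for the 4921 features between 20% and 30%, where the level went from 23.9% to 17.9% and 17.2%. Below 2% it was 99.9% (20716 features), and those features stayed at 1.96% and 1.93%. Binning on replicate 2 gave the same shape, with the lowest share, 71.5%, in the same bin.

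At like E9.5 PGC levels, features that were more methylated in ESCs kept a larger share in ESC-PGCLCs. Outside repeats, among features at 70% to 80% in E9.5 PGC replicate 1, those under 10% in ESCs (417 features) had 53.5% and 53.3% in the ESC-PGCLC libraries, which was 71.9% of the other E9.5 PGC library. Those at 50% or more in ESCs (3878 features) had 63.1% and 63.4%, a share of 84.1%. The rise ran through all 6 classes of ESC level in this band, and repeats of the same band went from 72.3% (234 features) to 86.4% (5156 features). These shares are given as a description, without a test.

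**Figure D2:**
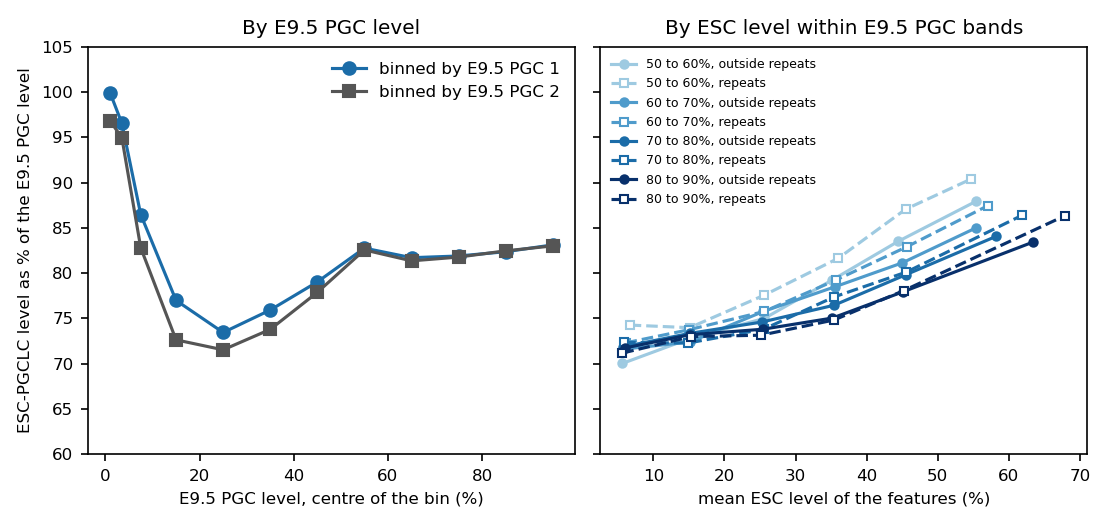
ESC-PGCLC level as a percent of the E9.5 PGC level (vertical axis, both panels); left, features binned by their level in 1 E9.5 PGC library, with the share taken against the other; right, features of 4 bands of E9.5 PGC level split by their mean ESC level (horizontal axis), filled circles outside repeats and open squares repeats. The share falls to 73.4% at 20% to 30% methylation and lies near 82% from 50% upward; within a band it rises with the ESC level, from 71.9% to 84.1% outside repeats at 70% to 80%.

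Features could also be chosen on ESCs and E12.5 PGCs alone, without the values compared. The 116 features at 5% or less in both ESC libraries and at 50% or more in both E12.5 PGC libraries (embryonic day 12.5) had 82.8% and 82.9% in E9.5 PGCs and 59.8% and 60.2% in ESC-PGCLCs. Of these, 115 were lower in ESC-PGCLCs and 110 were called, against 29.6% of all features tested called lower. Many of all features had little methylation to lose. Among autosomal features at 30% or more in E9.5 PGC replicate 1, 67.9% were called lower. The reverse choice, 69 features at 40% or more in both ESC libraries and at 10% or less in both E12.5 PGC libraries, had 16.6% and 18.0% in E9.5 PGCs and 27.2% and 27.0% in ESC-PGCLCs. Here 52 were higher in ESC-PGCLCs, 26 called, against 0.168% of all features tested called higher, and 2 were called lower. In both sets the ESC-PGCLC mean lay between those of ESCs and E9.5 PGCs in most features, 115 of 116 and 52 of 69. As ESCs and E9.5 PGCs lay far apart in both sets, nearly any change towards ESCs falls between. These counts thus repeat those of lower and higher features and add no support. Over all features tested with an ESC level, the ESC-PGCLC mean lay between in 66.6%, and over those called higher in 50.7%.

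Most CpG islands that were methylated in E9.5 PGCs were called lower. Of 13795 islands tested on assembled chromosomes, the 11864 under 5% in E9.5 PGC replicate 1 had 2.12% and 2.16% in E9.5 PGCs and 2.11% and 2.13% in ESC-PGCLCs, and the groups overlapped (exact permutation p = 0.667, n = 2). Limma called 0 of them, with 569 at an unadjusted p under 0.05. Islands this low can hardly drop by the gap in points that a call requires. The lack of lower calls among them thus follows largely from how they were chosen, and it cannot show whether they lost methylation. The 1071 islands at 20% or more went from 63.9% and 63.5% to 47.3% and 47.4%, with 779 called lower, 72.7% of them. Only 18.3% of these methylated islands lay within 500 bases of the start of a protein-coding gene, against 69.3% of all islands tested. The 786 islands called lower had a median length of 318 bases and a median observed-to-expected CpG ratio of 0.815, against 614 bases and 0.879 for all. The 1071 islands at 20% or more had nearly the same values, 341 bases and 0.821. As 779 of these were themselves called, the likeness was largely fixed beforehand. It cannot show whether the called islands differ from other methylated ones. Of the 786 called lower, 11.3% lay within 500 bases of the start of a protein-coding gene, against the 18.3% given above.

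The called islands with the widest separation were inside genes or between them. The island at chr8:40898982-40899274, within Slc7a2, a transporter of cationic amino acids, had 92.6% and 80% in E9.5 PGCs and 37.7% and 28.5% in ESC-PGCLCs (adjusted p 0.00272, limma). One within Myh7, a heavy chain of cardiac myosin (chr14:54979264-54979559), went from 82.9% and 79.4% to 37.9% and 39.7%. One within Ppp1r37, a regulator of protein phosphatase 1 (chr7:19532719-19532966), went from 85.1% and 84.4% to 48.3% and 44.8%. The 2 other islands of that selection overlapped no named gene, and the groups were apart by at least 36.9 points in both. The call of one of them, on chromosome 18, was lost on untransformed levels (adjusted p 0.0597) and without any 1 of the 4 libraries (adjusted p up to 0.181). Only 2 islands were called higher, and neither overlapped a named gene: chr5:119796511-119796843, from 5.17% and 3.76% to 23.6% and 24.5% (55.3% in ESCs), and chr14:89898191-89899068, from 7.14% and 0% to 26.4% and 22.4%. The call of the latter was lost on untransformed levels (adjusted p 0.104) and in the fit of the 4 libraries alone (adjusted p 0.0948), and without 3 of the 4 libraries in turn (adjusted p up to 0.147).

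The X chromosome and the autosomes were both lower in ESC-PGCLCs. X-linked features (2621) went from 36.1% ± 0.128 to 29.2% ± 0.236 (SD, n = 2), 80.8% of the E9.5 PGC level, and autosomal features from 26.3% ± 0.178 to 20.8% ± 0.136, 79.3%. Single autosomes ranged from 78.0% (chromosome 17) to 80.8% (chromosome 13), so the X chromosome lay at the upper end of the autosomes. X-linked CpG islands, many of which are methylated on an inactive X chromosome, had 22.7% and 22.9% in E9.5 PGCs and 17.4% and 17.8% in ESC-PGCLCs (356 islands), against 7.05% and 7.04% and 5.69% and 5.69% in 13498 autosomal islands. Near protein-coding gene starts the contrast was wider: 243 X-linked islands had 20.6% ± 0.235 and 15.4% ± 0.369, and 9314 autosomal islands 2.85% ± 0.00269 and 2.60% ± 0.0108. At the 348 X-linked islands with a level in all 12 libraries, ESCs had 4.34% and 3.71% and ESC-PGCLCs 17.1% and 17.5%. Exact permutation p was 0.333 for each of these group differences, the lowest possible.

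Most promoters of maternally imprinted genes were called lower in ESC-PGCLCs. The list of genes in domains with a maternally methylated control region had 17 promoters of 29 genes, with means of 47.6% and 48.9% in E9.5 PGCs and 33.9% and 33.4% in ESC-PGCLCs (exact permutation p = 0.333, n = 2). Of the 17, 14 were called lower and 0 higher, and the median difference was -14.7 points, against -0.932 points over all promoters tested. At 20% or more in E9.5 PGC replicate 1 the count was 14 of 16, against 56.9% of 6850 promoters at that level. With centred libraries 1 of the 17 was called lower and 1 higher, with a median log2 odds difference of -0.23. All promoters at 20% or more in E9.5 PGC replicate 1 had -0.12. The number of calls in this list too thus rests on absolute levels. ESCs had 12.5% and 11.6% over the same promoters, so the ESC-PGCLC level was again between that of the ESCs and that of E9.5 PGCs.

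Plagl1, a zinc finger transcription factor, had the largest drop of the list. Its promoter had 53.5% and 59.7% in E9.5 PGCs and 32.3% and 32.4% in ESC-PGCLCs, a log2 odds difference of -1.41 ± 0.22 (SE; adjusted p 0.00351). The groups were 21 points apart, and ESCs had 1.05%. Sgce, which encodes a sarcoglycan, and Peg10, derived from a retrotransposon and needed in the placenta, start next to each other on chromosome 6. Sgce went from 52.8% and 56.0% to 36.7% and 33.6%, and Peg10 from 50.9% and 54.8% to 35.7% and 32.9%. The neighbours thus moved alike, and their reads may overlap. Zrsr1, an intronless gene related to a splicing factor, went from 51.2% and 50.1% to 32.8% and 33.9% (adjusted p 0.000982). Mcts2, another intronless gene inside a host gene, went from 58.8% and 61.5% to 43.9% and 43.3%. Their stretches printed above have 8 and 12 CpGs.

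The Gnas and Nespas promoters, of 1 locus on chromosome 2 that encodes a G protein subunit and an antisense RNA, went from 48.7% and 47.5% to 34.0% and 29.4%, and from 51.1% and 57.5% to 37.2% and 33.2%. Nnat, a small membrane protein of neurons, and Blcap lie together on the same chromosome. Nnat went from 69.7% and 68.2% to 48.2% and 53.9%, and Blcap from 44.5% and 50.5% to 32.1% and 34.5%. In all 4 the groups were apart by at least 9.97 points. Mest, a protein of the hydrolase fold family, had 48.6% and 49.0% against 34.5% and 36.7% (adjusted p 0.0289). Nap1l5, Inpp5f, Slc38a4 and Grb10 were called with differences from -10.8 to -14.7 points, and the calls of Mest, Slc38a4, Nap1l5, Inpp5f, Gnas and Grb10 were lost when single libraries were left out (adjusted p up to 0.119).

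The remaining 3 promoters of the list were not called. Snrpn, a spliceosome protein of the Prader-Willi region, had 59.2% and 66.5% in E9.5 PGCs and 48.5% and 56.7% in ESC-PGCLCs (adjusted p 0.0965), and ESCs had 39.6%. Igf2r, the receptor that clears IGF2, had 25.4% and 19.7% against 13.4% and 15.8%, a difference under 10 points (-7.96). Without E9.5 PGC replicate 2 it was called (-10.8 points, adjusted p 0.0384). Zim1 was near 2% in all 4 libraries. Introns and exons of the listed genes gave a mean difference of -13.3 points, close to that of the promoters.

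Paternally imprinted genes were few, and most of their promoters had little methylation to lose. Of 6 promoters, 1 was called, near the 21% of all promoters called lower. Meg3, a long noncoding RNA expressed from the maternal allele, went from 48.0% and 50.0% to 32.0% and 30.4% (log2 odds difference -1.06 ± 0.11 SE, adjusted p 0.00118), and its printed stretch has 10 CpGs. H19, a noncoding RNA next to Igf2, had 69.4% and 57.1% in E9.5 PGCs and 56.2% and 57.6% in ESC-PGCLCs, so its groups overlapped (adjusted p 0.349). Igf2, Dlk1, Rasgrf1 and Zdbf2 were under 3% in all 4 libraries. The list's mean difference of -3.93 points therefore rests on Meg3 and H19, and introns and exons of the listed genes gave -8.31 points. The median of the single promoter differences was -0.201 points. With centred libraries 0 were called lower and 3 higher.

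**Figure D3:**
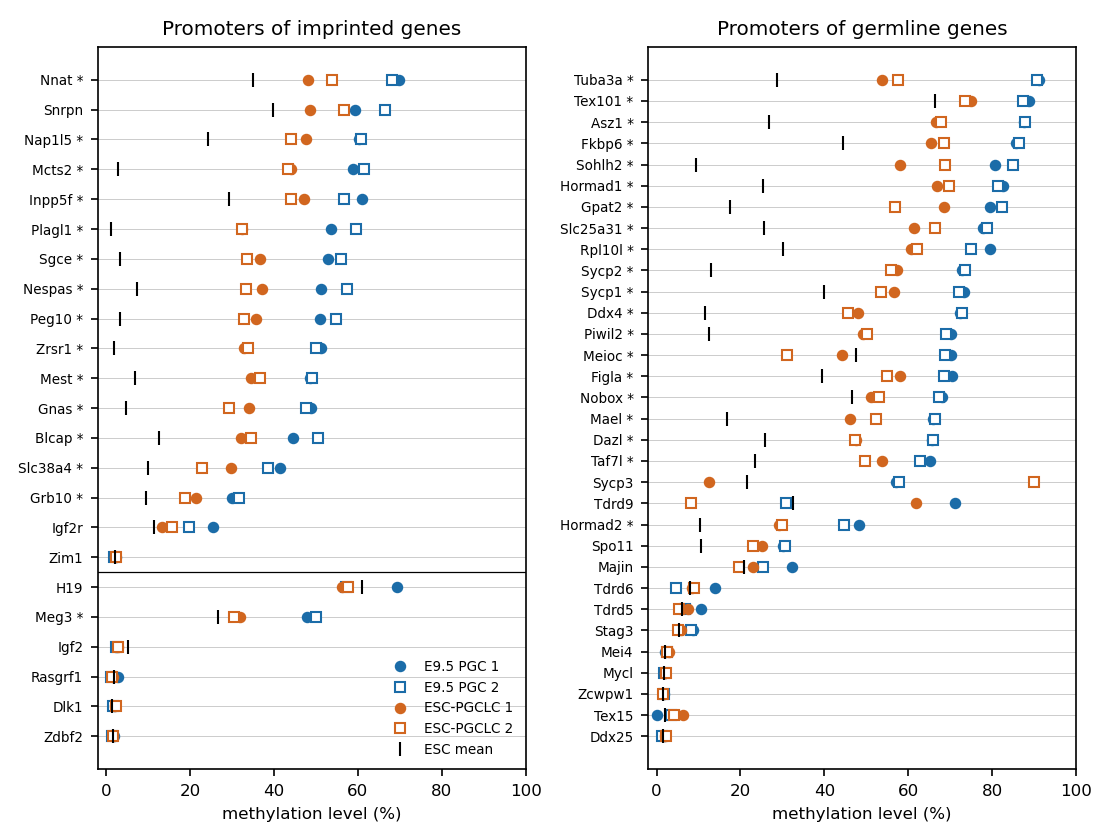
Methylation level in percent (horizontal axis) of each promoter of the imprinted lists (left; maternally imprinted above the line, paternally imprinted below) and of the germline list (right) in each library; blue E9.5 PGC, orange ESC-PGCLC, circles replicate 1, squares replicate 2, black ticks the mean of 2 ESC libraries, and an asterisk a call. Of 17 maternally imprinted promoters 14 are called lower and of 32 germline promoters 20, while Sycp3 and Tdrd9 have replicates far apart.

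Promoters of many germline genes are silenced by methylation in the early embryo and opened in PGCs. Of 32 promoters of 52 listed genes, 20 were called lower and 0 higher, against 21% of all promoters called lower, and the median difference was -15.0 points. The list means were 54.0% and 51.9% in E9.5 PGCs and 39.9% and 40.2% in ESC-PGCLCs (exact permutation p = 0.333, n = 2). Of the 24 at 20% or more in E9.5 PGC replicate 1, 20 were called, against 56.9% of all promoters at that level. With centred libraries 4 were called lower and 4 higher. Ddx4, an RNA helicase that marks germ cells, went from 72.3% and 72.9% to 47.9% and 45.5% (log2 odds difference -1.56 ± 0.12 SE, adjusted p 0.000777). Dazl, an RNA-binding protein needed for germ cell development, went from 65.6% and 66.0% to 47.6% and 47.2%. ESCs had 11.5% at Ddx4 and 25.9% at Dazl.

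Called promoters included those of Mael, Asz1 and Piwil2, genes of the piRNA pathway, which silences transposons in the germline. Mael went from 65.9% and 66.3% to 46.1% and 52.4%, Asz1 from 87.5% and 88.0% to 66.5% and 67.9%, and Piwil2 from 70.1% and 69.0% to 49.2% and 50.1%. Called promoters of genes for the synaptonemal complex or meiotic chromosome axes were those of Sycp1, Sycp2, Hormad1 and Hormad2, while Sycp3 and Stag3 were not called. Sycp1 went from 73.4% and 72.0% to 56.5% and 53.6%, Sycp2 from 72.9% and 73.6% to 57.3% and 55.9%, and Hormad1 from 82.6% and 81.4% to 66.9% and 69.8%. The largest drop of the list was at Tuba3a, an alpha-tubulin of the testis, from 91.1% and 90.6% to 53.9% and 57.5%. The next was at Meioc, a meiotic regulator, from 70.3% and 68.7% to 44.1% and 31.0%, below its ESC level of 47.5%.

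The other called promoters were those of Figla, Fkbp6, Gpat2, Hormad2, Nobox, Rpl10l, Slc25a31, Sohlh2, Taf7l and Tex101, with differences between -12.4 and -19.3 points. The calls of Gpat2 and Sohlh2 were lost on untransformed levels (adjusted p 0.0757 and 0.0521), and those of Gpat2, Sohlh2 and Slc25a31 when single libraries were left out. Sycp3, the third synaptonemal gene measured, had 57.1% and 57.7% in E9.5 PGCs but 12.5% and 90% in the 2 ESC-PGCLC libraries, so its difference could not be told from the spread between replicates (adjusted p 0.930). It was called lower without ESC-PGCLC replicate 2 (-44.9 points, adjusted p 0.0117) and higher without ESC-PGCLC replicate 1 (32.6 points, adjusted p 0.0163). Tdrd9, an RNA helicase of the piRNA pathway, was as uneven, with 71.1% and 30.8% against 61.8% and 8.33%. Spo11 and Majin had 30.2% and 30.5% against 25.1% and 23.0%, and 32.4% and 25.5% against 23.1% and 19.6%. The remaining 8 promoters were under 14% in all 4 libraries.

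Genes of PGC specification and pluripotency gave 5 lower calls among 16 promoters of 23 listed genes, with a median difference of -3.13 points, and 3 lower and 4 higher calls with centred libraries. All 5 calls were among the 8 promoters at 20% or more in E9.5 PGC replicate 1, a share near the 56.9% of all promoters at that level. The 5 were methylated in E9.5 PGCs and had levels of at most 3.67% in ESCs. Dppa3, a maternal-effect protein that guards against loss of methylation, went from 67.1% and 69.8% to 39.5% and 40.1% (log2 odds difference -1.68 ± 0.13 SE, adjusted p 0.000803), with 3.08% in ESCs. Zfp42, a marker of ground-state stem cells, went from 65.4% and 63.8% to 41.1% and 37.4%. Dppa5a went from 83.0% and 82.3% to 56.1% and 61.1%, Dppa2 from 70.5% and 69.1% to 53.9% and 49.6%, and Tcl1, a cofactor of the kinase AKT, from 74.2% and 72.2% to 59.3% and 51.8%. All 5 stayed above 37% in both ESC-PGCLC libraries.

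Of 9 genes chosen as markers of PGC specification, 5 had a promoter level and 1, Dppa3, was called. Pou5f1, which encodes OCT4, had 24.8% and 24.7% against 13.7% and 16.1%, which passed the adjusted p (0.00371) but not the 10-point limit, and without ESC-PGCLC replicate 2 it was called (-11.0 points). Kit, the receptor for SCF, had 45.3% and 52.2% against 37.0% and 38.7% (adjusted p 0.0928). Nanos3 was between 4.91% and 6.67% and Tfap2c between 2.14% and 2.44% in all 4 libraries. Of the other members of the list, Lin28a had 21.2% and 11.5% against 16.4% and 12.4%, and Esrrb 14.4% and 14.7% against 11.1% and 9.25%.

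Genes of the DNA methylation machinery gave 2 lower calls among 15 promoters, Dppa3 again and Dnmt3b, and 1 lower and 2 higher with centred libraries. Over all promoters 21% were called lower, so the count of this list was not above the background. Dnmt3b, a de novo methyltransferase, had 12.2% and 11.5% in E9.5 PGCs and 1.86% and 1.23% in ESC-PGCLCs (adjusted p 0.00187), with 13.2% in ESCs. Without E9.5 PGC replicate 1 its difference was -9.98 points, just short of the limit for a call. Dnmt3l, the cofactor of the de novo enzymes, had 64.3% and 64.9% against 56.8% and 58.1%, and Dnmt3a 42.9% and 36.2% against 31.2% and 32.7%, which was called without E9.5 PGC replicate 2 (-10.9 points). Tdg, a glycosylase that removes oxidised methylcytosine, had 22.3% and 22.6% against 16.5% and 13.1%, and Dnmt1, the maintenance enzyme, 21% and 18% against 19.4% and 14.8%. The groups of Dnmt1 overlapped.

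Limma called 0 promoters of the last lists, with 3 of the epiblast list and 4 of the X inactivation list at an unadjusted p under 0.05. Over all promoters 21% were called lower, and 56.9% of those at 20% or more in E9.5 PGC replicate 1. Only 1 epiblast and 4 X inactivation promoters were at that level, and a promoter under 10% cannot drop by 10 points. With centred libraries 8 of the epiblast list and 2 of the X inactivation list were called higher. Of 15 promoters of epiblast and gastrulation genes, 12 had an E9.5 PGC mean under 5% and the median difference was -0.0490 points. The most methylated were Lefty2, a Nodal inhibitor, with 21.7% and 22.2% against 12.2% and 12.7% (adjusted p 0.00707), and Lefty1, with 17.6% and 16.3% against 12.3% and 15.1%. Of the 15, Fgf8 and Wnt3a were at most 5.61% in the 4 libraries compared. Of 12 promoters of X-linked genes followed in studies of X inactivation, 4 were at 20% or more in E9.5 PGCs and the median difference was -0.769 points. Rlim, a ubiquitin ligase that promotes X inactivation, had 51.6% and 41.1% against 38.3% and 23.6% (adjusted p 0.0725), and it was called without ESC-PGCLC replicate 1 (-22.8 points). Hprt had 28.1% and 28.9% against 26.5% and 36.8%, Huwe1 25.5% and 25.4% against 18.7% and 26.3%, and Zfx 24.4% and 23.9% against 21.4% and 18.8%. The replicates of Hprt and Huwe1 in ESC-PGCLCs were on either side of the E9.5 PGC values.

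The features outside repeats with the widest separation were picked for that gap, so the size of their change follows from the choice. The 10 lower ones, 1 per gene, fell by at least 57.8 points, and 10 of 10 had less methylation in ESCs than in E9.5 PGCs, as did 40248 of 40401 features called lower with an ESC level. The intron of Aifm1, a mitochondrial apoptosis factor (chromosome X, gene span 48474944 to 48513563, minus strand), had 75.8% and 74.0% in E9.5 PGCs and 2.47% and 4.76% in ESC-PGCLCs (log2 odds difference -5.98 ± 0.27 SE, adjusted p 0.000725). The promoter of Rasgef1a, an exchange factor for Ras proteins (chromosome 6, gene span 118011438 to 118091546, plus strand), had 56.1% and 59.5% in E9.5 PGCs and 0% in each ESC-PGCLC library. The intron of Scgn, a calcium-binding protein (chromosome 13, gene span 23953456 to 23991214, minus strand), had 55.6% and 62.4% and likewise 0% in each. These features, with Cryzl2 and L1cam, were lower in the 2 ESC-PGCLC libraries than in each of the other 10 libraries of the series. In pESC-PGCLCs, for instance, Rasgef1a had 47.0% and 37.0% and Cryzl2 55.2% and 53.3%.

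The other 5 lower features were not below all of the other libraries. The intron of Rc3h2, an RNA-binding ubiquitin ligase, went from 84.1% and 93.0% to 16.4% and 12.6%, with 13.8% and 16.6% in pESC-PGCLCs and 2.34% and 4.43% in ESCs. The exon of Syt3, a calcium sensor of vesicles, went from 76.3% and 87.5% to 11.3% and 12%, with 8.08% and 3.75% in ESCs. Tcaf2, Fchsd1 and the 3′ UTR of Ufc1, an enzyme that attaches the ubiquitin-like UFM1, had differences between -60.1 and -66.4 points. All of these calls were kept in each alternative run for them, which did not include centring.

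The 10 higher features outside repeats rose by at least 32.7 points. The promoter of Cyp2c38, a cytochrome P450 (chromosome 19, gene span 39389556 to 39463075, minus strand), had 0% and 10% in E9.5 PGCs and 66.7% and 61.1% in ESC-PGCLCs (log2 odds difference 5.66 ± 1.74 SE, adjusted p 0.0420). Its call was lost when E9.5 PGC replicate 1 or either ESC-PGCLC library was left out (adjusted p 0.180, 0.135 and 0.119). The intron of Epb42, a protein of the red cell membrane, was listed at 0 in both E9.5 PGC libraries and had 41.2% and 41.7% in ESC-PGCLCs, with 67.9% and 55.7% in ESCs. Introns of Dph6, Pop4, Fdxacb1, Acadl and Kcnj16 and the 5′ UTR of B3galt5 were likewise under 10% in E9.5 PGCs and between 32.3% and 48.9% in ESC-PGCLCs. The call of B3galt5 was lost in the fit of the 4 libraries alone and without either ESC-PGCLC library (adjusted p up to 0.0769).

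At Cd109 and Bmx both ESC-PGCLC libraries were above the other 10 libraries. The intron of Cd109, a membrane-anchored glycoprotein, had 53.1% and 41.7% in E9.5 PGCs against 82.9% and 82.2% in ESC-PGCLCs, while pESC-PGCLCs had 51.0% and 39.9%. The intron of Bmx, a tyrosine kinase on the X chromosome, had 52.6% and 52.9% against 80% and 97.2%. The call of Bmx was lost in the fit of the 4 libraries alone (adjusted p 0.0879) and without either E9.5 PGC library.

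Repeats are keyed in the files by element name and by a span of its consensus sequence, without a genome position, so many features share an element and are not independent. Most families had about 80% of their E9.5 PGC level in ESC-PGCLCs, and IAP, ETn and MusD, and L1Md elements had more. IAP internal sequences (603 features of 9 element names) went from 77.1% and 76.8% to 71.0% and 71.0%, 92.3% of the E9.5 PGC level, and 14.4% of 571 tested were called lower. IAP LTRs (216 features) went from 80.7% and 80% to 71.4% and 70.8%, a share of 88.5%, and ETn and MusD elements (114 features) from 76.7% and 76.7% to 66.4% and 67.0%, a share of 87.0%. L1MdA, L1MdTf and L1MdGf, the young LINE-1 elements of mice, kept 86.3%, and L1MdF and other L1Md elements kept 87.3%. In contrast B1, B2 and B4 SINEs went from means of 62.0% to 65.1% down to 49.2% to 52.5%, shares of 79.6%, 80.9% and 79.9%, with 54.7% to 56.6% called lower. With centred libraries the median log2 odds difference was 0.15 for IAP internal sequences, -0.08 for IAP LTRs and -0.15 for B1, beside 0.22 over all features, so these families were all below the median of all features on this scale.

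The order was much the same at like levels. Among features between 70% and 90% in E9.5 PGC replicate 1, IAP internal sequences had 91.4% of the level in the other E9.5 PGC library (398 features) and IAP LTRs 88.3% (164 features), against 79.7% for B1 (752 features) and 83.9% over all repeats. IAP internal sequences were also the most methylated family in ESCs, with 69.3%, against 46.5% over all repeats, and in E12.5 PGCs, with 60.9% against 44.8%. Within the IAPs the elements differed. IAPEz-int, the most numerous with 313 features, went from 80% and 79.6% to 74.2% and 74.0%. IAPLTR2_Mm had 85.0% and 84.9% against 80.1% and 80.5% (16 features), while IAPEY5_LTR had 79.3% and 79.1% against 63.2% and 63.0% (17 features). MERVL and MT2 elements, which are active in the early embryo, had 82.4% of the E9.5 PGC level, near the mean of all repeats (84.1%).

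**Figure D4:**
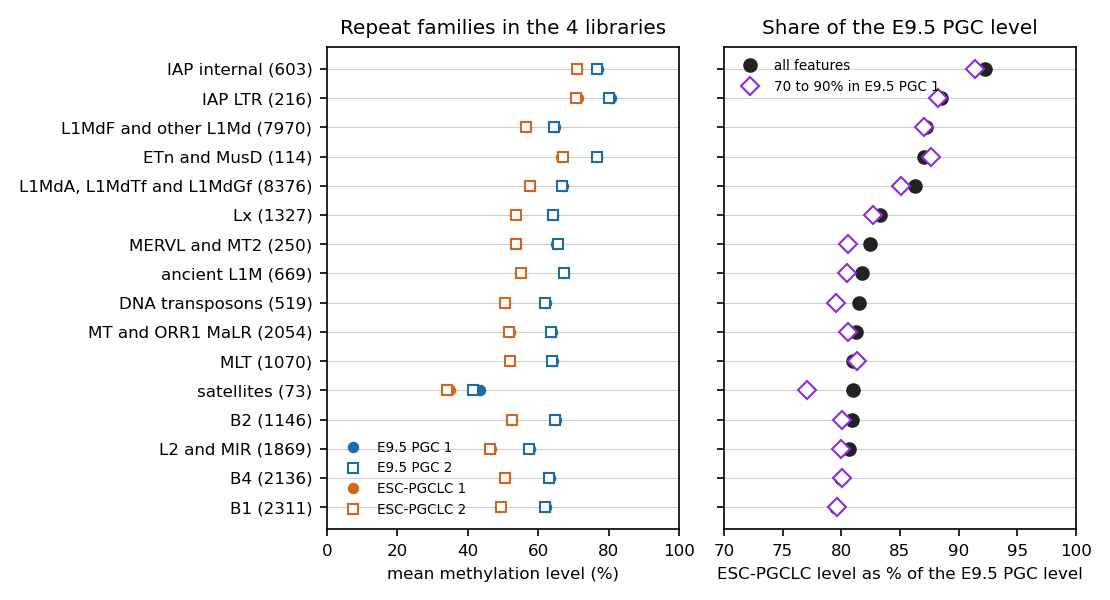
Repeat families with the number of features in parentheses; left, mean methylation level in percent in each library (blue E9.5 PGC, orange ESC-PGCLC, circles replicate 1, squares replicate 2); right, the ESC-PGCLC level as a percent of the E9.5 PGC level over all features (black circles) and over features at 70 to 90% in E9.5 PGC replicate 1 (open diamonds). IAP internal sequences have the highest share, 92.3%, and B1 the lowest, 79.6%.

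The repeats with the widest separation were spans of LINE-1, MLT, B2 and B4 elements. Some had levels of 0% or 100%, and the depth behind each level is unknown. These repeats were picked for their gap, so the size of their change follows from the choice. The 6 lower ones went from at least 84.7% in E9.5 PGCs to at most 33.1% in ESC-PGCLCs. L1MdF_III 548-3083, a LINE-1 span, had 100% in both E9.5 PGC libraries and 20% and 0% in ESC-PGCLCs, and L1MdA_I 200-5606 had 98.5% and 97.4% against 26.7% and 21.8%. The lower spans also included MLT1C 492-548, from 100% and 96.6% to 14.3% and 21.1%, whereas pESC-PGCLCs had 64.0% and 80.8%. The 6 higher ones rose by at least 30.2 points. B4A 24-143 had 40.4% and 45.2% against 88.0% and 85.0%, and L1MdF_IV 411-527 had 66.7% and 49.5% against 100% in both ESC-PGCLC libraries. In 4 of these 6, B4A and the spans of L1MdFanc_I, L1MdA_III and L1MdF_IV, both ESC-PGCLC libraries were above the other 10 libraries. The span of Lx2B2 was listed at 0 in both E9.5 PGC libraries and had 30.3% and 30%, and its call was lost without any 1 of the 4 libraries (adjusted p up to 0.0757).

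Y-linked features, which the label check brought up, had ESC-PGCLC levels close to those of E9.5 PGCs. The 18 at 30% or more in E9.5 PGC replicate 1 had means of 69.4% and 70% in the E9.5 PGC libraries and 69.3% and 67.5% in the ESC-PGCLC libraries, a share of 97.7% against E9.5 PGC replicate 2. They are not the same set as the 18 of the label check. The exon and intron of Eif2s3y, which were low, are left out. The introns of Zfy1 and Gm29221 are included, although they had a level in 4 and 2 ESC or pESC libraries. The share was 79.1% for 35488 autosomal and 82.6% for 1057 X-linked features at 30% or more. Limma called 0 of the 18, with 3 at an unadjusted p under 0.05 and 0 lower by 10 points or more. Uty and Zfy2 passed the adjusted p but not the 10-point limit. The counts compare with 67.9% of autosomal and 48.6% of X-linked features called lower at that level. Median standard errors were 0.21 for the Y-linked and 0.14 for the autosomal features on the log2 odds scale. The 18 have 16 distinct sets of values, the difference from the other chromosomes was not tested, and its cause was not tested either.

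The intron of Zfy2, a zinc finger gene, had the largest drop, from 72.4% and 74.2% to 62.0% and 67.9% (adjusted p 0.0257). The intron of Uty, a histone demethylase relative, had 88.9% and 88.8% in E9.5 PGCs and 85.4% and 84.5% in ESC-PGCLCs (adjusted p 0.0302). The intron of Usp9y, a deubiquitinase, had 68.0% and 69.2% against 68.4% and 60.7%, so the groups overlapped. The exons of Kdm5d, a histone demethylase, were higher, with 88.3% and 89.0% against 100% and 92.0%. In the other groups the same 18 features had 50.6% and 52.9% in E12.5 PGCs and 62.4% and 60.9% in pESC-PGCLCs.

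**Figure D5:**
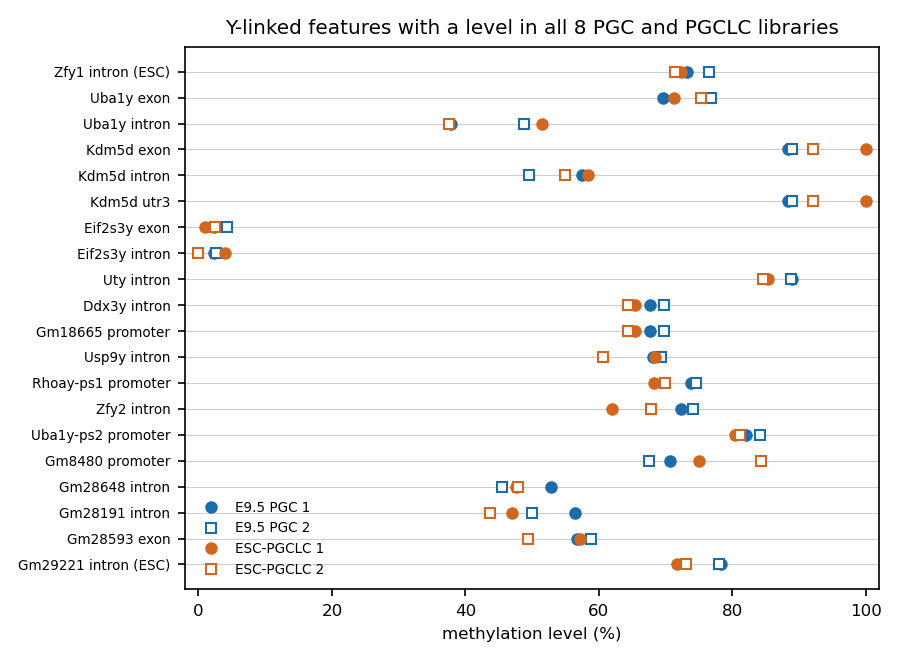
Methylation level in percent (horizontal axis) of the 20 Y-linked features with a level in all 8 PGC and PGCLC libraries, in the 4 libraries compared; blue E9.5 PGC, orange ESC-PGCLC, circles replicate 1, squares replicate 2. Features marked (ESC) also had a level in a stem cell library. Blue and orange marks lie close together in most rows, and 12 of the 18 features at 30% or more are lower and 6 higher in ESC-PGCLCs.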

How the data were processed

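Methylation was measured by RRBS in 12 libraries, 2 in each of 6 groups. According to the methods, DNA was cut with MspI, treated with bisulfite, and aligned to mm10 with Bismark 0.16.3, named in the submitters' processing notes with Bowtie2. Unique best alignments were kept, and the level was corrected for non-conversion. The deposited values are fractions (methylated calls over all calls, averaged by the authors over each feature) and are given here as percent. Read counts are not used here and the coverage minimum and promoter extent are not given in the sources used here, so intervals, floors and a coverage alternative could not be computed.

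Genes were named through GENCODE M21 (99.9% of 30073 identifiers matched), and islands were placed on GRCm38.p6, where 100% of 13858 begin with CG when starts count from 0. Positions are printed from 1. Limma 3.58.1 in R 4.3.3 was fitted to log2((level + 0.01)/(1 - level + 0.01)) of 137202 features with a level in all 8 PGC and PGCLC libraries. Only the contrast of ESC-PGCLCs with E9.5 PGCs was used, with Benjamini-Hochberg adjustment over all features. The fit was tested on simulated data. Alternatives were other offsets, scales, sets of libraries, centring, a larger difference, a replicate block and leaving out each library. Summary levels were compared by exact two-sided permutation (scipy 1.17.1).

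Genes were named by a rule on the gap between nearest replicates: 10 genes, 6 repeats and 5 islands in each direction, all imprinted promoters, and, of the other lists, promoters called plus up to 4 others with the highest E9.5 PGC level. The comparison, the lists and the tests were chosen with earlier results of these data known, and 2 patterns that sort repeats into families were adjusted after the element names were seen. The lists were maternally and paternally imprinted genes, germline genes, PGC specification, DNA methylation machinery, epiblast and gastrulation, and X inactivation.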

Additional observations from a re-analysis of the deposited data

Results flagged for a closer look

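Y-linked features lie outside the study's comparisons and have values where none was foreseen from the labels. ESC-PGCLC replicate 1 listed 23 and replicate 2 listed 21 Y-linked features that no ESC or pESC library lists, although the ESC line is labelled female. The E9.5 PGC replicates listed 25 and 23 of them. How they came to be listed was not tested. With 2 libraries a group, no library could be tested as an outlier.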

How the results depend on the processing

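Level differences kept their direction under the median over features, the replicate block, all features of each library and the leaving out of single libraries. The exception was the paternally imprinted promoters, where the difference between medians was 0.216 points. The median of the single promoter differences, a different measure, was -0.201 points. The median made other differences smaller by over 1.5 times, from -5.44 to -1.02 points for autosomal features and from -1.45 to -0.0219 for CpG islands, and the global one larger (-10.3 points). Lower calls were 39010 in the fit of the 4 libraries alone (37911 shared with the 40680) and 29003 of 133311 features with all 12 libraries. Centring gave 6093 lower and 23524 higher calls. A difference of at least 20 points gave 7580 and 96, and autosomal features alone 24666 and 118, as fewer features pass or enter. Leaving out single libraries gave 35596 to 37188 lower and 218 to 449 higher calls, the latter without ESC-PGCLC replicate 1. The replicate numbers are shared by the groups, but no source says that they pair the samples (correlation of deviations 0.109, 2 pairs). The replicate block gave 40388 lower and 225 higher calls, 15 maternally imprinted promoters in place of 14, and changed no other list's count, and its global difference was -6.80 points. Of 80 named features called, 16 lost the call in at least 1 setting run for them, 3 of them in the fit of the 4 libraries. Those settings were the fit of the 4 libraries, untransformed levels and leaving out each library. Centring was not among them. Under centring, lower calls went from 14 to 1 in the maternally imprinted list and from 20 to 4 in the germline list. Sycp3, not called, was called higher without ESC-PGCLC replicate 1 (32.6 points) and lower without ESC-PGCLC replicate 2 (-44.9 points). Without Y-linked features, a setting chosen after seeing the data, the global difference was -6.80 points. The coverage minimum could not be varied, since the levels come without read counts, and depth cannot be weighed.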
